A study of Mus musculus with 6 samples.

Results

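Of the 440 mature miRNAs that the study's table names, 62 (14.1%) carry a late number and are the subject here. They are the names with a miR number of 1000 or more and no asterisk, leaving out miR-3074-5p and adding miR-720. Small RNA was sequenced from the hearts of C57BL/6J mice, an inbred laboratory strain, at 12 weeks of age. Per the labels there were 2 groups of 3 biological replicates, 2 weeks after surgery. One group was the border zone beside an infarct, and the other was the same region after a sham operation, which makes no infarct. The labels name no allele, drug or sort. The headers over the table's 6 columns of values are short codes that occur in no sample label, so no column could be matched to a sample or a group. Levels, ranks, detection, library depth and the difference between infarcted and sham hearts are therefore not analysed here. What follows describes the 62 names by their sequences, their precursors and their places in the genome.

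MicroRNAs are short RNAs that guide Argonaute proteins to messenger RNAs, chiefly through the seed, the bases 2 to 8 from the 5′ end. Most are cut from a hairpin precursor by the Microprocessor complex, Drosha with Dgcr8, and then by Dicer. Numbers in the miRBase registry are given in order of discovery, so late numbers come largely from deep sequencing, in which pieces of other small RNAs are also read. A name in the table shows that the authors kept a row for it and gives no abundance.

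RefSeq sequences for build GRCm38.p6 gave a single mature sequence for 39 of the 62 names. For 9 names the gene has 2 or more mature entries and the name gives no arm, so the sequence it stands for was not settled. These 9 are miR-1199, miR-1247, miR-1943, miR-1947, miR-1968, miR-1981, miR-3060, miR-3068 and miR-3102. The other 14 had no mature entry in the sequence table and are named only: miR-5115, miR-5109, miR-5107, miR-5105, miR-5102, miR-5099, miR-5097, both miR-3096-5p and miR-3096b-5p, and miR-1965, miR-1948, miR-1940, miR-1196 and miR-720. The 51 names with a miRNA gene in the annotation point to 44 genes, and 42 of these had a position with a strand.

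Members whose gene overlaps that of a scaRNA, snoRNA or tRNA are shown first. Capitals mark the seed.
miR-1839-5p: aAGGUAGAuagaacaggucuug
miR-1843-5p: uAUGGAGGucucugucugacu
miR-1843-3p: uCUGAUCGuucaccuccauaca
miR-1843b-5p: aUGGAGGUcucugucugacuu
miR-1843b-3p: cCGAUCGUuccccuccauac
miR-3068-5p: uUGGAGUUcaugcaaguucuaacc
miR-3068-3p: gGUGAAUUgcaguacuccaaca
miR-5121: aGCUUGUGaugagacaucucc
miR-1983: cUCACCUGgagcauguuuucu

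These sequences belong to 8 of the listed names and to 6 genes, each of which overlaps the gene of a structural RNA. Small Cajal body RNAs (scaRNAs) and small nucleolar RNAs (snoRNAs) guide the chemical modification of other RNAs, and tRNAs carry amino acids to the ribosome. The whole of miR-1839-5p lies at positions 65 to 86 of a 127-base scaRNA that GENCODE annotates under the same symbol, Mir1839. Both arms of miR-1843, from the gene Mir1843a, lie in Scarna3b, a scaRNA of 139 bases, at positions 78 to 98 and 116 to 137. Both arms of miR-1843b lie in its 140-base relative Scarna3a, at positions 80 to 100 and 118 to 137. In both RNAs the 3p arm thus ends within 3 bases of the annotated 3′ end. Scarna3b sits in an intron of Dcaf5 and Scarna3a in an intron of Cop1, the gene of a ubiquitin ligase.

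The name miR-3068 gives no arm, but either mature entry of its gene lies in a 136-base snoRNA within an intron of Alkbh1. The 5p arm is at positions 71 to 94 and the 3p arm at 112 to 133. As with Mir1839, GENCODE annotates this snoRNA under the symbol of the miRNA gene, Mir3068. The table also lists miR-3068*, so both strands of this precursor were named. The sequence of miR-5121 lies near the start of Snord33, at positions 3 to 23 of 84 bases. Snord33 is a snoRNA encoded within the ribosomal protein gene Rpl13a. The precursor of miR-1983 spans 132 bases and takes in all 94 bases of n-TItat14, a tRNA gene in RefSeq, whose table gives no strand. Of the 21 bases of miR-1983 at chr13:21896930-21896950 (GRCm38.p6, minus strand), 13 fall inside that tRNA gene. All entries printed above except miR-1983 lie in full in an annotated scaRNA or snoRNA.

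**Figure D1:**
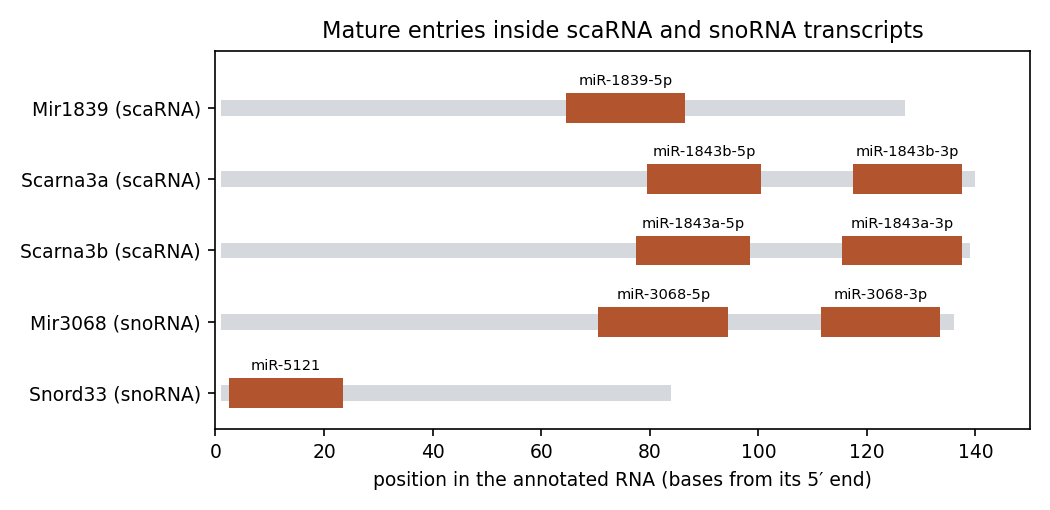
Map of 5 annotated RNAs (grey bars, position in bases from the 5′ end) with the mature miRNA entries that lie in them (orange). The entries of miR-1843, miR-1843b and miR-3068 lie in the 3′ part of their RNAs, and miR-5121 lies at positions 3 to 23 of Snord33.

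For the counts that follow, each gene was given 1 place, the first that applied in this order: a structural RNA gene, a short intron of a coding gene, an exon of a coding gene, a longer intron of a coding gene, a noncoding host, or no host on the strand. Among the 42 genes with a strand, 6 (14.3%) overlapped a structural RNA gene. The same count for the genes of all other listed names was 2 of 248 (0.8%), where a name that matched several gene copies counted each copy. A list of 32 candidate fragments of other RNAs was drawn up from general knowledge and with earlier results of these data known. An overlap among its names is thus no independent result. The list held 14 of the 62 members. Of these 14, 3 had a mature entry, and 2 of the 3, miR-1839-5p and miR-1983, overlapped a structural RNA gene. The other, miR-2137, lies in an intron of Zfp185 with no such overlap. The remaining 11 had no entry to compare. The other 4 genes that overlap a structural RNA, Mir1843a, Mir1843b, Mir3068 and Mir5121, were not on that list.

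A second set of members is annotated in very short introns. In a mirtron the spliced intron itself serves as the precursor, and splicing takes the place of Drosha cutting. Whether the members below are made in this way was not tested. The precursor of miR-1981 is shown with the first and last 2 bases in capitals, since these are the letters at which an intron is cut.
Mir1981 precursor: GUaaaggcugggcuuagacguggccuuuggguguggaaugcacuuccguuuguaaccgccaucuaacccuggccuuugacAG

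This precursor (chr1:184822407-184822488, minus strand) is 82 bases long and fills an intron of 82 bases in Marc2, a mitochondrial reductase gene, from end to end. The 5p entry starts at the first base of the intron. The table names miR-1981 and miR-1981*, so both strands of this intron were listed. Mir3102 in the same way fills an intron of 104 bases in Arhgef17. Its 4 mature entries in RefSeq are shown in their order along the RNA, because they lie end to end.
miR-3102-5p: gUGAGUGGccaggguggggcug
miR-3102-5p.2: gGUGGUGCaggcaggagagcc
miR-3102-3p.2: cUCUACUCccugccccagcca
miR-3102-3p: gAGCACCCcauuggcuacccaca

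No base separates miR-3102-5p from miR-3102-5p.2, 16 bases follow, and no base separates miR-3102-3p.2 from miR-3102-3p. The precursor thus carries 2 inner and 2 outer mature entries. The table names the inner entries as miR-3102-5p.2 and miR-3102-3p.2, and a further entry as miR-3102 with no arm.

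Precursors of other members reach only 1 end of an intron. Mir3082, whose arm miR-3082-3p is listed, lies at the 3′ end of an intron of 178 bases in Stub1, the gene of the ubiquitin ligase CHIP. It starts 115 bases into that intron and reaches 1 base into the exon that follows. Mir3057, the source of miR-3057-5p, starts 70 bases into an intron of 135 bases of Apba3 and runs 26 bases into the next coding exon. Mir3076, the source of miR-3076-3p, lies at the 3′ end of a longer intron of 962 bases in the transketolase gene Tkt, with 1 base in the exon. The mature sequences from Mir3076 and Mir3082 are shown because both end in the letters CAG, the usual end of an intron.
miR-3076-3p: cGCACUCUggucuucccuugcag
miR-3082-3p: cACAUGGCacucaacucugcag

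With an intron of at most 200 bases called short, 4 of the 42 genes (9.5%) lay mainly in a short intron of a coding gene, against 1 of 248 (0.4%) for the other listed names, Mir877 in Abcf1. Mir5121, already counted with the structural RNAs, also lies in a short intron, of 163 bases in Rpl13a, except for 1 base.

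A further set lies in exons of protein-coding genes, on the same strand as the messenger RNA. It holds 8 genes (19.0% of 42), against 6 of 248 (2.4%) for the other listed names, which include Mir21a in Vmp1. Mir22 is counted among them as well, though the exon that holds it belongs to a noncoding transcript of the coding gene Tlcd2. All 79 bases of Mir1306, the source of the listed miR-1306-5p and miR-1306-3p, lie in coding sequence of Dgcr8, whose product is the Microprocessor's own RNA-binding subunit. Coding sequence of 2210011C24Rik holds all 119 bases of Mir1199, listed as miR-1199 and miR-1199*. The 61 bases of Mir5114 span the end of the coding part and the start of the 3′ UTR of Scd2, which encodes a stearoyl-CoA desaturase. In a 3′ UTR lie Mir3061 in Ppp2ca, the catalytic subunit of protein phosphatase PP2A, Mir3098 in the mitochondrial ribosomal protein gene Mrpl51, Mir5113 in Tnrc6b, which encodes a partner of Argonaute, and Mir1191 in BC024978.
miR-1306-5p: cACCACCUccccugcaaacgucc
miR-1306-3p: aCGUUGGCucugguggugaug
miR-3061-5p: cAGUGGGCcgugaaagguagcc
miR-3061-3p: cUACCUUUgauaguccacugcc

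These 4 sequences are shown because both arms of each exonic precursor are named in the table, as are both arms of miR-3098. Of the 44 genes behind the members, 10 had 2 or more listed names: Mir1199, Mir1247, Mir1306, Mir1843a, Mir1843b, Mir1981, Mir3061, Mir3068, Mir3098 and Mir3102.

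**Figure D2:**
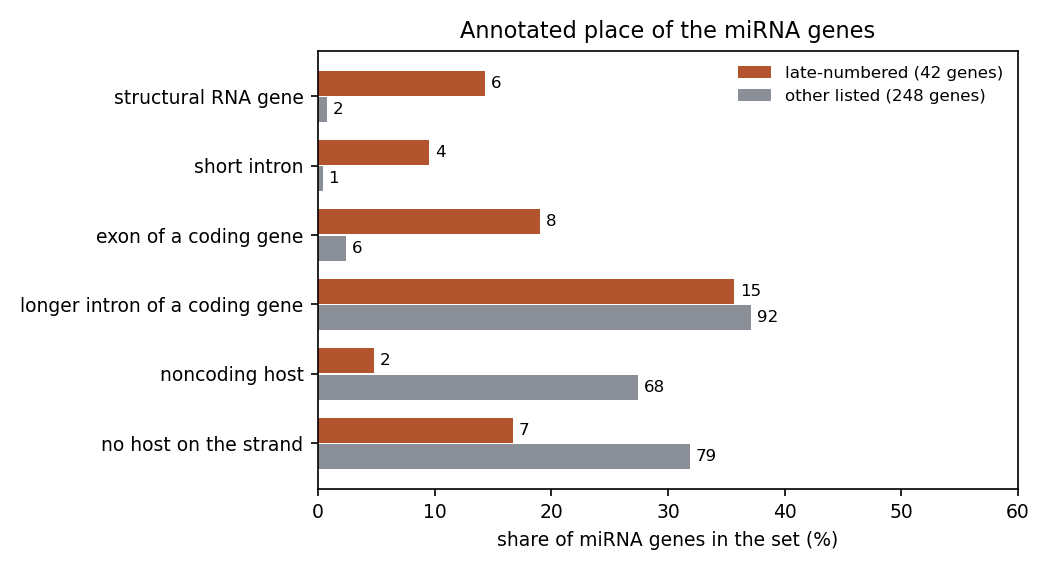
Share of miRNA genes in each annotated place (x axis, %) for the late-numbered members (42 genes, orange) and the other listed names (248 genes, grey), with the number of genes beside each bar. Structural RNA genes, short introns and exons of coding genes hold 6, 4 and 8 of the 42 genes, and 2, 1 and 6 of the 248.

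The largest group of members has the ordinary place of an intronic miRNA. With the genes that overlap a structural RNA set aside, 15 of the 42 genes (35.7%) lay in longer introns of coding genes, close to the 92 of 248 (37.1%) among the other listed names. Mir1843a, Mir1843b and Mir3068, counted with the structural RNAs, lie in such introns as well. They are the genes of miR-1198-5p in Gripap1, miR-1933-3p in Ugp2, miR-1943 in Tmem184b, miR-1947 in Lmln, miR-1960 in Hadhb, miR-1964-3p in Zfp84, miR-1968 in Grtp1, miR-2137 in Zfp185, miR-3060 in Rnf215, miR-3076-3p in Tkt, miR-3086-5p in Hspa12a, miR-3473 in Syap1, miR-5100 in Mief2, miR-5119 in Cdk12 and miR-5123 in B4galt1. Hadhb encodes a subunit of the mitochondrial enzyme that oxidises long-chain fatty acids, the main fuel of heart muscle. Its intron around Mir1960 measures 3030 bases. Noncoding hosts held 2 of the genes not yet placed (4.8% of 42, against 27.4% of the other genes). They are Mir1247, which overlaps an exon of Dio3os in the imprinted Dlk1-Dio3 region by 21 of its 82 bases, and Mir1895, which lies in an RNA antisense to Cxxc4. Mir1839, counted with the structural RNAs, also lies in an intron of the lincRNA 2900076A07Rik. No host on their strand and no structural RNA was found for 7 genes (16.7%, against 31.9%), those of miR-1195, miR-3470b, miR-3473b, miR-3963, miR-3968, miR-5099 and miR-5126. Mir1983 has no host gene besides its tRNA gene. No test was made of these shares, since the genes were chosen by name.

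Some members are found in many other transcripts. Related members are shown with the bases they share in capitals.
miR-3473: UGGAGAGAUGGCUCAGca
miR-3473b: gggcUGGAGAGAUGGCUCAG

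The 2 sequences share a run of 16 bases that starts at position 1 of miR-3473 and at position 5 of miR-3473b, so their seeds differ. Exact copies of miR-3473b stood in transcripts of 344 genes other than its own, 238 of them protein-coding. For miR-3473, matched to the gene Mir3473a, the count was 146 genes, 101 of them protein-coding. The most copies were found for miR-3470b.
miR-3470b: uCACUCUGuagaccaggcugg
miR-1195: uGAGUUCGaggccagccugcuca

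Transcripts of 546 other genes held miR-3470b exactly, and the reverse complement stood in transcripts of 497 genes. Among the transcripts with exact copies were 2 annotated only as miscellaneous RNA for miR-3470b, Gm22642 and Gm25735, and 1 for miR-3473b, Gm22514. With 1 mismatch allowed, the counts were 1421 genes for miR-3470b, 1041 for miR-3473b and 522 for miR-3473. The sequence of miR-1195 had no exact copy elsewhere and stood with 1 mismatch in transcripts of 6 other genes, among them Lmna, which encodes nuclear lamins A and C. Short interspersed repeats of the B1 and B2 families occur in many mouse transcripts. No repeat annotation was used here, so whether these copies lie in such repeats was not tested. A read of miR-3470b, miR-3473 or miR-3473b cannot be assigned to the miRNA gene by sequence alone. How the authors treated reads with several positions is stated in no source used here.

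In the counts that follow, genes that overlap the sequence's own locus, host genes included, were left out. Of the 39 members with 1 sequence, 35 had no exact copy in a transcript of another gene away from that locus. Besides the members just named, miR-1843b-5p had a copy, which lies in Scarna3b and the overlapping CT030161.1, at the locus of its relative miR-1843. Among the 95 other listed names with 1 sequence, 2 (2.1%) had an exact copy in another gene, miR-574-5p and miR-690, each in 3 genes. For the members the share was 10.3%, over the 39 of 62 names that gave a single sequence. The names left out include 11 of the candidate fragments of other RNAs, which had no mature entry. With 1 mismatch allowed, the share was 20.5% for the members and 2.1% for the other names, with miR-574-5p in 112 genes and miR-690 in 10.

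**Figure D3:**
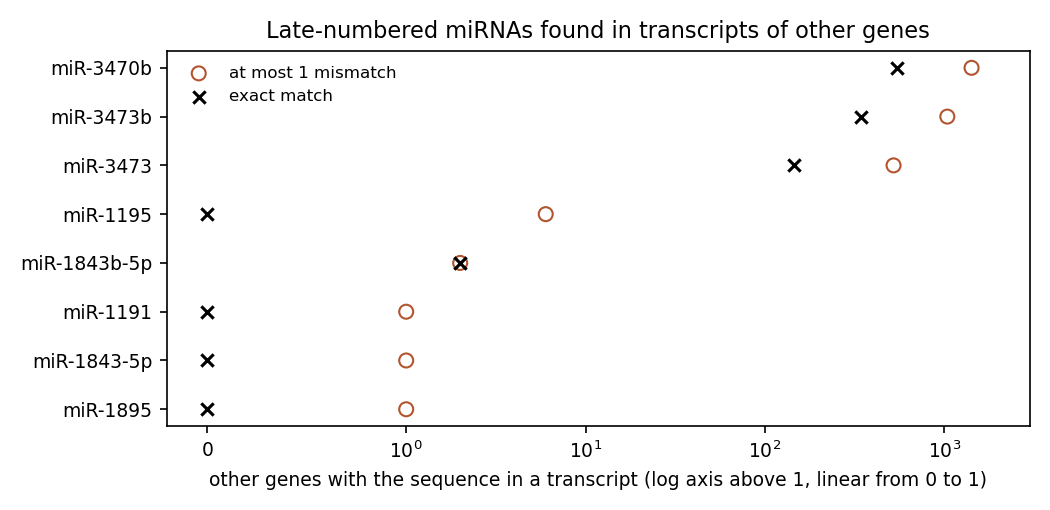
Number of other genes with a transcript that holds the mature sequence (x axis, logarithmic above 1), exactly (crosses) or with at most 1 mismatch (circles), for the 8 members with any such gene. Genes that overlap the member's own locus, host genes included, are left out. With exact matches miR-3470b, miR-3473b and miR-3473 reach 546, 344 and 146 genes, and the others stand at 0 or 2.

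The miR-1843 relatives show how the ends set the seed. Capitals mark the shared run.
miR-1843-5p: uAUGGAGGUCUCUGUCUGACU
miR-1843b-5p: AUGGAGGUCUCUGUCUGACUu

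The 20 bases in common start at position 2 of the first and position 1 of the second. The annotated ends are shifted by 1 base, so the seeds read AUGGAGG and UGGAGGU. The 2 names are separate rows in the table, although a read that covers only the shared bases fits both.

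Shorter runs join miR-3968 to miR-5100 and to miR-3963. Runs of this kind are common in the T arm of tRNAs, a stem and loop near the 3′ end of the molecule. Capitals mark shared bases.
miR-3968: CGAAUCCCAcuccagacacca
miR-5100: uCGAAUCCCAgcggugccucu
miR-3963: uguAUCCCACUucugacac

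The run CGAAUCCCA of 9 bases opens miR-3968 and starts at position 2 of miR-5100. The 8 bases in capitals in miR-3963 also stand in miR-3968, from position 4. None of their genes overlapped a tRNA gene in RefSeq. No sequence of a nuclear tRNA was used here, so whether these runs come from tRNAs was not tested. Mir3963 and Mir3968 have no host on their strand, and Mir5100 lies 95 bases into an intron of Mief2. With all mature entries of the members' genes compared, the 3p arms of miR-1843 and miR-1843b also shared 9 bases, and 8 pairs from different genes, miR-3963 with miR-3968 included, shared a longest run of 8.

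Seeds of the members were mostly their own. None of the 39 shared bases 2 to 8 with a listed miRNA of another gene, while 16 of the 95 other names with 1 sequence (16.8%) shared them with another listed gene. These 95 are only a part of the 378 other names, and no let-7 or miR-30 name is among them. Some of the 95 give no arm and took the only mature entry of their gene, so the seed compared may not be that of the listed arm. The shares given for them therefore do not describe all the other names. Over all RefSeq mature entries, 4 members (10.3%) shared a seed with another gene, against 26 of the 95 (27.4%). Those are miR-1983 with miR-412-3p, miR-3473 with miR-882, miR-3473b with miR-3473e and miR-5114 with miR-7094b-2-5p. With bases 2 to 7 alone, 4 members matched a listed name. In this shorter seed miR-1839-5p matched miR-196b-5p, miR-1960 matched the 3p arms of miR-148a, miR-148b and miR-152, miR-1198-5p matched miR-511-3p, and miR-5123 matched miR-376a-5p. For miR-148a, miR-148b, miR-152 and miR-376a the table lists a plain and an asterisk name, so both strands were named. Which of these names stands for the matching arm was not settled. The name miR-196b gives no arm, so its arm in the table was not settled either.
miR-1960: cCAGUGCUguuagaagagggcu
miR-148b-3p: uCAGUGCAucacagaacuuugu
miR-152-3p: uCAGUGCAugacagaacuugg

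In these 3 sequences the seeds read the same up to base 7, and miR-1960 differs at base 8.

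In base composition the members ranged widely. Their GC content had a median of 54.5% over 39 sequences, from 40.9% in miR-1839-5p up to miR-5126, which is made of G and C alone. For the other names it was 52.4% (23.8 to 73.9%), over the 95 of 378 names that gave a single sequence. At 70% GC or more stood 5 members, miR-1895, miR-2137, miR-3102-5p.2, miR-5122 and miR-5126, and 2 of the other names.
miR-2137: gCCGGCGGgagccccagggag
miR-5122: cCGCGGGAcccggggcugug
miR-5126: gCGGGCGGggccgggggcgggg

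The GC content of miR-2137 is 85.7% and that of miR-5122 is 85.0%. Argonaute is known to prefer U or A at the 5′ end of its guide. Among the members 12 began with U (30.8%), 7 with A (17.9%), 16 with C (41.0%) and 4 with G (10.3%). Among the 95 sequences of other names 31 began with U (32.6%), 31 with A (32.6%), 20 with C (21.1%) and 13 with G (13.7%). Some of these names give no arm and took the only mature entry of their gene, as miR-23b took its 5p entry. For such names the arm used may not be the one listed. Over these sequences the shares with U were close, and A was less and C more frequent among the members. Most other names gave no single sequence and are left out, the let-7 names among them. The shares therefore do not describe all the other names. The median length was 21 bases (18 to 24), against 22 (20 to 24). The shortest member was miR-3473, with 18 bases.

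The predicted folds of the precursors spanned much the same range as those of the other listed names. Precursor sequences were at hand for 39 of the 42 genes, all but Mir1195, Mir3102 and Mir3470b. These 39 are not the same set as the 39 names with a single mature sequence. Over these hairpins the minimum free energy had a median of -45.6 kcal/mol per 100 bases, against -43.4 over 236 hairpins of the other names, and the ranges overlapped (-77.3 to -28.9 and -71.3 to -22.4). A fold with a single hairpin loop was predicted for 36 of the 39 (92.3%) and for 226 of the 236 (95.8%). The 3 with more loops were Mir1191, Mir1199 and Mir1983, and the last of these, which contains the tRNA gene, had 3 loops. The weakest fold was that of Mir3968, at -28.9 kcal/mol per 100 bases, with 61.9% of the mature bases paired. Next came Mir1839 at -30.1, Mir3963 at -31.7 and Mir1843b at -32.4, of which the first and the last lie in scaRNAs. The strongest fold was that of Mir3473b, at -77.3, with every base of its mature sequence paired. Strong folds were also predicted for Mir3086 (-72.3), Mir3061 (-71.9) and Mir1943 (-71.4).

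**Figure D4:**
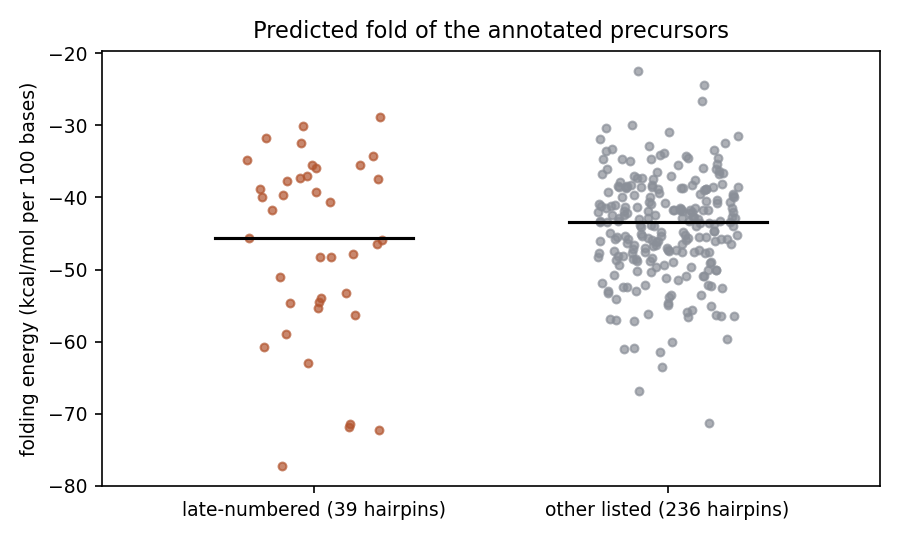
Predicted minimum free energy per 100 bases of precursor (y axis, kcal/mol, lower is more stable) for hairpins of the late-numbered members (39) and of the other listed names (236), each point a hairpin and each line a median. The medians are -45.6 and -43.4, and the points overlap over most of the range.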

How the data were processed

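The series holds small RNA sequencing of 6 mouse heart samples, 3 per group per the labels. The deposited table pairs a column of miRNA names, which is what the authors' file was read for, with 6 numeric columns. These have headers that match no label and were not used. The submitters' processing notes name DESeq. The sources used here do not give its role, the aligner, the build or the miRBase release.

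With pandas 2.3.3 in Python 3.11.15, names were matched to RefSeq miRNA genes by symbol, otherwise by synonym, and to mature entries by name, then by gene and arm. A name with no arm took the only mature entry of its gene where RefSeq held a single one, whichever arm that was. RefSeq positions (GRCm38.p6) were set against GENCODE M21 transcripts of the same build. All 39 single mature sequences stood in a GENCODE miRNA or structural RNA transcript at the same position. Copies elsewhere were counted per gene on the sense strand, leaving out miRNA genes and genes at the own locus. Where a host gene had coding transcripts, these decided exon or intron. Of these, the one with the shortest intron around the precursor was taken. Folds came from RNAfold 2.7.2. The sequence search was tested on simulated data. Every member is named, and sequences are printed for members in another RNA, in short introns, with both arms listed, or sharing bases. The members and lists were chosen with earlier results of these data known. No test between groups was made. The host of 1 exonic member is not reported here.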

Additional observations from a re-analysis of the deposited data

How the results depend on the processing

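With asterisk names included there were 66 members in place of 62, and the bare number rule also gave 62. Exact mature names alone matched 33 members to a mature entry in place of 48, of which 39 had a single sequence. With the seed taken as bases 2 to 7, 4 members shared it with another listed miRNA in place of 0. With 1 mismatch allowed, 8 members had a copy in a transcript of another gene, away from the own locus, in place of 4. Both of these alternatives loosen the match, which can only add members. Of 11 planned processing choices, 6 were not run, because they need the value columns, which could not be matched to samples. The search used transcripts, so copies elsewhere in the genome were not counted. No paired analysis was possible because the value columns carry no replicate number and no group.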
